A study of Homo sapiens with 6 samples.

Results

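The genes described here are the enzyme CH25H, which makes an oxysterol, and 26 genes of sterol and fatty acid synthesis with their regulators, which are usual targets of the sterol regulatory element-binding proteins (SREBPs) or steps of the same pathways. They were taken from the deposited count table by gene symbol, and all 27 had a row among its 27234 rows. The genes were chosen by pathway and selected on the log2 fold changes of siFLI1 over siControl, which were known when the list was drawn up, so the differences between groups given for its members describe them and are not independent support for any statement about the list. RNA was measured in A673, an established Ewing sarcoma cell line that carries the EWS-FLI1 fusion, a chimeric protein of EWSR1 and the ETS family factor FLI1. Cells grown in medium with fetal bovine serum were transfected with siRNA against FLI1 (siFLI1, 3 libraries) or scrambled siRNA (siControl, 3 libraries) and harvested after 48 h. Both groups thus carry the fusion gene. Part of the fusion transcript is FLI1 sequence, so siRNA against FLI1 can act on it as well. Its level was not measured apart from that of FLI1. A single line stands for the tumour. The labels do not say whether the libraries of a group came from separate cultures, so the spread between them may be technical.

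Cholesterol is built from acetyl-CoA through mevalonate, isoprenoid diphosphates, squalene and lanosterol, in a chain of enzymes most of which sit in the endoplasmic reticulum. Their genes are switched on together by SREBP2, which is held in the endoplasmic reticulum by SCAP and INSIG proteins while sterols are plentiful and is cut free by proteases in the Golgi when they are scarce. The related SREBP1 acts mostly on genes of fatty acid synthesis. CH25H adds a hydroxyl group to the side chain of cholesterol. Its product binds INSIG proteins, which keeps SREBPs inactive, and is a ligand of the liver X receptors, and the gene is known as interferon-induced in macrophages. These are facts from general knowledge and not results of these data.

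The bases just upstream of the annotated start are printed for 3 genes: CH25H, INSIG1 and SREBF2. CH25H was the member that was called, and INSIG1 differed most among the others. SREBF2 held the single match to the sterol response element among the 24 member promoters searched. Sequences are RefSeq's on GRCh38.p14, each 250 bases that end 1 base before the start, written 5′ to 3′ on the gene's strand. For CH25H they cover chr10:89207318-89207567 (minus strand), for INSIG1 chr7:155297628-155297877 (plus strand) and for SREBF2 chr22:41832855-41833104 (plus strand). Capitals mark the Sp1 box GGGCGG in CH25H, the palindromic E-box TCACGTGA and a reversed NF-Y box CCAAT in INSIG1, and the sterol response element TCACNCCAC and a reversed NF-Y box in SREBF2.
CH25H: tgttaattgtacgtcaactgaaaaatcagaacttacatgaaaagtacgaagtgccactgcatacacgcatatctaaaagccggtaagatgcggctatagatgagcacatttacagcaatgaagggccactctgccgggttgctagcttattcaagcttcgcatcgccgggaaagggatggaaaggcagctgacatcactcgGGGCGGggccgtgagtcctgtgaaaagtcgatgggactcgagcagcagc
INSIG1: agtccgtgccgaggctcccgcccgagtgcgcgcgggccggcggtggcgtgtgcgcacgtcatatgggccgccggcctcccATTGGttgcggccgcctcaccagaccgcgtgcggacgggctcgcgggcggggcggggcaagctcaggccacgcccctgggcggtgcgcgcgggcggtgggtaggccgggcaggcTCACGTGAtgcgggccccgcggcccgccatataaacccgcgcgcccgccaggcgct
SREBF2: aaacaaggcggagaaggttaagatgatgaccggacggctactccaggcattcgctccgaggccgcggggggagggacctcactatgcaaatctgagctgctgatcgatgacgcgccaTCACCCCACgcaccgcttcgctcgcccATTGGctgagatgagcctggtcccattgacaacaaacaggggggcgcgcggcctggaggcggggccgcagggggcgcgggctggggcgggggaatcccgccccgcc
Other copies of GGGCGG, which INSIG1 and SREBF2 also hold, are left in lower case there. The start used here lies 106 bases inside the counted row of INSIG1 and 26 bases inside that of SREBF2. The last printed bases of both, with the INSIG1 E-box, are thus part of those rows.

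Promoter entries, from 250 bases before to 50 bases after a start, were matched for 24 of the 27 members. For each, the entry nearest to the start of its row was taken. FDFT1, SQLE and FASN had no entry, so their promoters were not searched. The FADS2 entry lies 11629 bases from that start, the others at most 257 bases, and FADS2 is counted among the NF-Y and Sp1 matches given here. Motifs were searched on both strands, and shares over all 35116 entries of the table, non-coding genes included, stand beside them. The NF-Y box CCAAT, a site of a factor that often works beside SREBPs, was in 16 of 24 member entries (66.7%) and in 34.6% of all entries. CH25H was among the 8 without it. The Sp1 box GGGCGG was in 23 of 24 (95.8%) and in 45.0% of all. The sterol response element TCACNCCAC and its core CACCCCAC, which overlap, were both found in SREBF2 alone, against 1.13% and 2.79% of all entries, and the E-box TCACGTGA in INSIG1 alone, against 0.98%. The ETS box CCGGAAGT was found in IDI1 alone, where it occurred 3 times, against 4.14% of all entries. No member entry held GGAAGGAA (3.67% of all), either of 2 fixed strings taken for the interferon-stimulated response element (3.57%) and the NF-kB element (0.558%). A match is a string of letters and no proof of a site, and a missing match says only that these letters are not in this window.

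Libraries read the 3′ ends of polyadenylated RNA, so a level in CPM (counts brought to a common library size with TMM, the trimmed mean of M values) does not depend on gene length in the way whole-transcript reads do. Counts in genes ranged from 417145 in siFLI1 replicate 3 to 1893606 in siFLI1 replicate 1, and 1 count was worth from 0.54 to 2.68 CPM. siFLI1 replicate 3 kept 10.1% of the total in its column header as gene counts, against 41.2% to 61.0% in the others. siControl replicate 1 differed most from its group. These libraries are named for some of the values they move, and values without both are given further on. FLI1, the target, was at 28.5 ± 12.4 CPM with siFLI1 (SD, n = 3) and 64.8 ± 3.71 CPM with siControl, with no overlap, but was not called (edgeR quasi-likelihood test, adjusted p = 0.17). All 7 markers listed for Ewing sarcoma were detected in enough libraries to be tested. Their log2 fold changes were all negative, from −1.43 to −0.28, with a median of −1.10. NR0B1 and PRKCB were called lower with siFLI1 and 0 were called higher. Among all tested genes, 0.117% were called lower and 1.34% higher. In bulk samples such as these, fewer cells of a type and less RNA per cell cannot be told apart. Of 6 markers of macrophages and other blood cells, AIF1 and TYROBP had 0 counts in every library, CD14 and CSF1R at most 2 counts in any, and PTPRC had counts only in siFLI1 replicate 3 (16) and siControl replicate 3 (6). CD68, the remaining marker, was at 62.5 ± 23.1 and 49.2 ± 5.39 CPM. Its groups overlapped, at 67.1, 83.0 and 37.5 CPM with siFLI1 and 49.0, 43.9 and 54.7 CPM with siControl. The summed level of the 6 ran from 68.8 to 84.4 CPM with siFLI1 and from 44.5 to 59.8 CPM with siControl. This gap rests on siFLI1 replicate 3, where PTPRC gave 42.8 CPM of a sum of 80.3 CPM.

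CH25H rose 8.96-fold, while none of the 23 other members that could be tested passed the threshold or differed by as much as 2-fold. CH25H (row NM_003956, hg38 chromosome 10, 89205937 to 89207314, minus strand) is a protein-coding gene with 1 exon, and no other annotated gene overlaps it. It was at 174, 190 and 212 CPM in replicates 1, 2 and 3 of siFLI1, where 311, 286 and 79 reads were counted. In replicates 1, 2 and 3 of siControl it was at 18.3, 21.1 and 24.8 CPM, where 34, 36 and 29 reads were counted. The lowest siFLI1 library was thus 7.02 times the highest siControl library. The level in siFLI1 replicate 3, the library with the fewest counts in genes, was close to the other siFLI1 levels. The means were 192 ± 18.9 and 21.4 ± 3.25 CPM (SD, n = 3), which is 3.16 ± 0.28 on the log2 scale (SE; 95% interval 2.55 to 3.77; adjusted p = 2e-05 over 9420 genes by edgeR with Benjamini-Hochberg). By size of the fold change CH25H stood at place 33 of the 126 genes called higher, and by p at place 10 of all genes. Over 15 other ways of fitting the data the log2 fold change ran from 2.98 to 3.27, and CH25H was called in each. The share of all tested genes called higher was 1.34% and called lower 0.117%, and among the 24 members tested 1 was called higher and 0 lower, a count from the comparison that was known when the list was made and from which nothing is read.

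**Figure D1:**
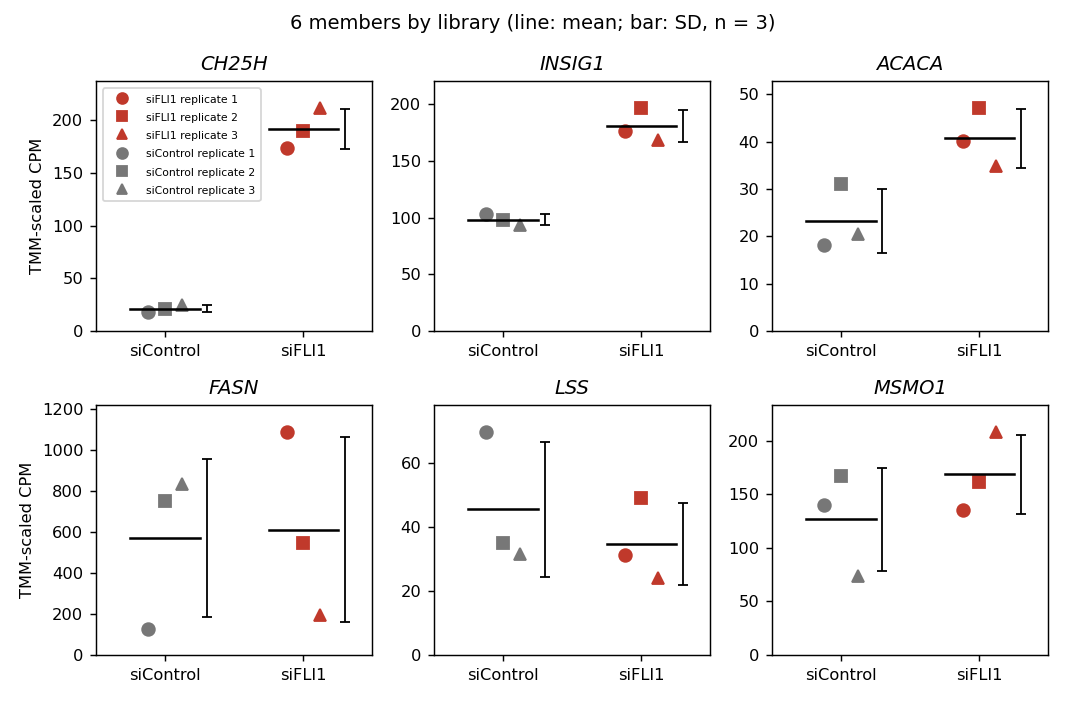
TMM-scaled CPM per library of CH25H, INSIG1, ACACA, FASN, LSS and MSMO1, on linear axes from 0, red for siFLI1 and grey for siControl, lines for means and bars for SD (n = 3). The groups do not overlap for CH25H (means 21.4 and 192 CPM), INSIG1 (97.9 and 181 CPM) and ACACA, while FASN varies more within each group than between them.

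The early steps that lead to isoprenoid diphosphates showed small differences in both directions. HMGCS1 (chromosome 5, 43287470 to 43313224), the cytosolic synthase that feeds the pathway, was at 73.2, 97.7 and 83.0 CPM with siFLI1 and at 59.8, 70.9 and 58.1 CPM with siControl. Each siFLI1 library lay above each siControl library, with a log2 fold change of 0.43 ± 0.27 (SE; 95% interval −0.16 to 1.01). FDPS, which makes farnesyl diphosphate (chromosome 1, 155308748 to 155320666), stood the other way, at 73.8, 75.1 and 64.3 CPM with siFLI1 and at 119, 79.6 and 91.5 CPM with siControl, with −0.43 ± 0.27 (95% interval −1.02 to 0.16). IDI1, the isomerase between them, overlapped at 167 ± 35.3 and 156 ± 10.3 CPM, with 0.10 ± 0.25. The kinases MVK and PMVK and the decarboxylase MVD, which act between HMGCS1 and IDI1, were too low to test. MVK had 12 counts over the siFLI1 libraries and 13 over the siControl libraries, MVD had 13 and 16, and PMVK had 14 and 3, with 0 counts for all of these enzymes in siFLI1 replicate 3. Groups without overlap were seen in 8.93% of all tested genes in the higher direction and 7.71% in the lower. Among the 24 tested members, CH25H, HMGCS1, INSIG1 and ACACA were of the first kind and FDPS of the second, and nothing is read from this count.

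From squalene to cholesterol, the 11 enzymes gave log2 fold changes from −0.55 to 0.39, 5 positive and 6 negative, with overlapping groups for each. FDFT1, which joins farnesyl units into squalene, was at 192, 133 and 137 CPM with siFLI1 and 262, 173 and 192 CPM with siControl, with −0.43 ± 0.27 (SE; 95% interval −1.01 to 0.14). SQLE, the squalene epoxidase and a slow step of the pathway, was at 279, 260 and 276 CPM with siFLI1 and 356, 289 and 228 CPM with siControl. Its siFLI1 levels fell inside the siControl range, and its log2 fold change was −0.10 ± 0.25. LSS, which closes the sterol rings, was at 31.3, 49.2 and 24.1 CPM with siFLI1 and 70.0, 35.1 and 31.6 CPM with siControl. Only siControl replicate 1 lay above the siFLI1 range, and the log2 fold change of −0.34 ± 0.40 became 0.08 without that library. CYP51A1, the lanosterol demethylase, was at 157 ± 15.0 and 155 ± 29.3 CPM (SD, n = 3), with 0.00 ± 0.25 (95% interval −0.54 to 0.54).

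The enzymes that strip methyl groups and shift double bonds came next. MSMO1, the sterol methyl oxidase, was at 136, 162 and 209 CPM with siFLI1 and 140, 167 and 73.5 CPM with siControl, with 0.39 ± 0.31 (SE). Its low siControl replicate 3 set that difference: without it the log2 fold change was 0.12. TM7SF2, a sterol reductase, was at 33.6 ± 13.7 and 27.1 ± 3.17 CPM (SD, n = 3), and NSDHL, a dehydrogenase on the same step as MSMO1, at 25.1 ± 1.96 and 23.3 ± 4.63 CPM. HSD17B7, the reductase that completes that step, had the most negative log2 fold change of the tested members, −0.55 ± 0.55, from 6.71, 21.3 and 8.03 CPM with siFLI1 and 15.6, 25.8 and 13.7 CPM with siControl. It rests on 47 and 89 counts in all and ran from −1.36 without siFLI1 replicate 2 to −0.20 without siFLI1 replicate 1. EBP, the isomerase, was at −0.26 ± 0.28, SC5D, the desaturase, at 0.19 ± 0.27 and DHCR7, the last reductase, at −0.40 ± 0.41 on the log2 scale.

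Of the regulators, INSIG1 had the largest difference after CH25H. It encodes the protein that holds the SREBP complex in the endoplasmic reticulum and is itself an SREBP target. INSIG1 (chromosome 7, 155297772 to 155310235, plus strand) was at 177, 197 and 169 CPM with siFLI1 and at 103, 97.8 and 93.2 CPM with siControl. The groups did not overlap, and the siControl libraries lay close together. Means were 181 ± 14.4 and 97.9 ± 4.85 CPM (SD, n = 3), 1.85-fold apart (95% interval 1.29 to 2.65), with a log2 fold change of 0.89 ± 0.24 (SE). It did not pass over all genes (edgeR adjusted p = 0.107), and its adjusted p ran from 0.0669 to 0.423 over 15 alternatives, with a log2 fold change from 0.75 to 0.96. Before adjustment, p was under 0.05 for 6.62% of tested genes in the higher direction and 4.13% in the lower, and INSIG1 and ACACA were the only members besides CH25H in the first set, with 0 in the second. SREBF2, which encodes SREBP2 (chromosome 22, 41833079 to 41907308), was at 27.4, 9.96 and 10.7 CPM with siFLI1 and 28.0, 11.7 and 27.3 CPM with siControl. Levels differed within both groups, and the level in siFLI1 replicate 3 rests on 4 counts. SREBF2 had 68 counts over the siFLI1 libraries and 104 over the siControl libraries. Its log2 fold change of −0.39 ± 0.53 moved to −1.12 without siFLI1 replicate 1 and to −0.09 without siFLI1 replicate 2. STARD4, a carrier that moves sterol between membranes, was at 28.0, 55.1 and 45.5 CPM with siFLI1 and 59.2, 26.4 and 23.9 CPM with siControl, with 0.20 ± 0.42. Without siControl replicate 1, the highest of the 6, STARD4 was at 0.72.

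**Figure D2:**
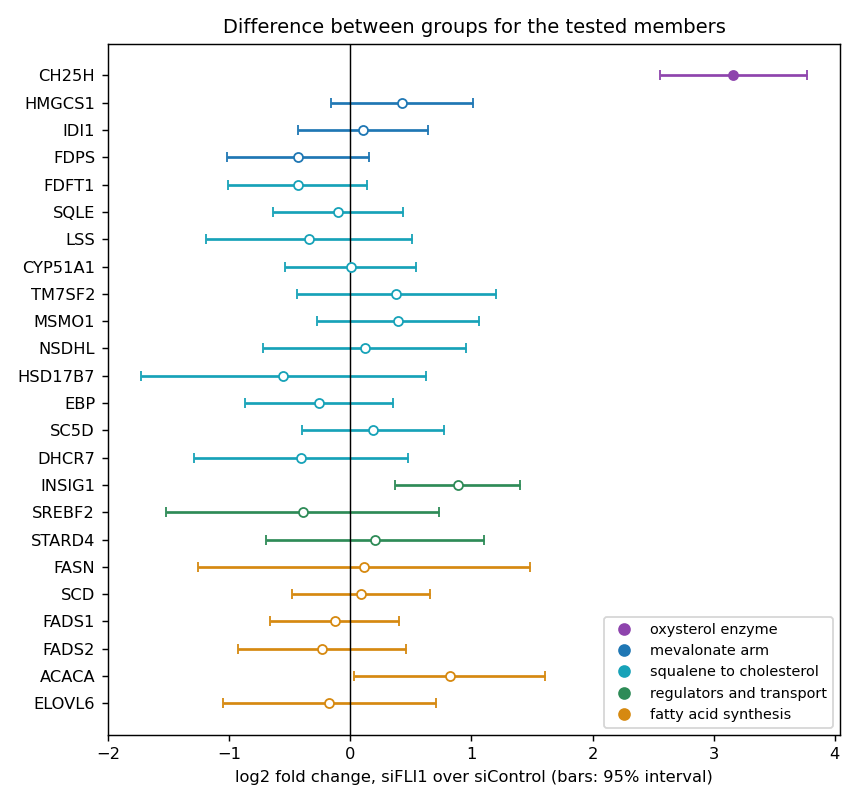
Log2 fold change of siFLI1 over siControl for the 24 tested members, with 95% intervals, ordered by role and coloured by group of members; the filled point was called over all genes and open points were not. CH25H lies at 3.16, INSIG1 at 0.89 and ACACA at 0.82, and the intervals of the other 21 include 0.

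Fatty acid synthesis and desaturation genes gave log2 fold changes from −0.24 to 0.82. ACACA, the acetyl-CoA carboxylase that commits carbon to fatty acids (chromosome 17, 37084992 to 37406811), was at 40.3, 47.2 and 34.8 CPM with siFLI1 and at 18.3, 31.0 and 20.5 CPM with siControl. The groups did not overlap, with a log2 fold change of 0.82 ± 0.37 (SE; 95% interval 0.03 to 1.61; edgeR adjusted p = 0.435). FASN, the fatty acid synthase (chromosome 17, 82078338 to 82098230), was at 1091, 546 and 195 CPM in replicates 1, 2 and 3 of siFLI1, and at 125, 751 and 835 CPM in those of siControl. The highest library was 5.58 times the lowest with siFLI1 and 6.65 times with siControl, where the median over genes of at least 50 CPM was 1.49 and 1.53 times. By this ratio FASN stood at place 38 of 3210 such genes with siFLI1 and place 10 of 3148 with siControl, and the low libraries were siFLI1 replicate 3 and siControl replicate 1. The log2 fold change of FASN, 0.11 ± 0.63, turned to −0.60 without siFLI1 replicate 1 and to −0.39 without siControl replicate 1, so these libraries give no direction for it. FADS2, the desaturase that opens the polyunsaturated pathway, was likewise lowest in siFLI1 replicate 3, at 359, 248 and 123 CPM with siFLI1 against 337, 271 and 268 CPM with siControl, with −0.24 ± 0.32. Its log2 fold change was 0.06 without siFLI1 replicate 3. SCD, which makes monounsaturated fatty acids, was at 440.5 ± 101 and 417 ± 43.3 CPM (SD, n = 3), with 0.09 ± 0.26. FADS1, a further desaturase, was at 321 ± 48.0 and 350.1 ± 37.5 CPM, with −0.13 ± 0.25. ELOVL6, which lengthens palmitate, was at 33.0, 18.6 and 29.5 CPM with siFLI1 and 38.2, 32.8 and 18.8 CPM with siControl, a log2 fold change of −0.17 ± 0.41.

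**Figure D3:**
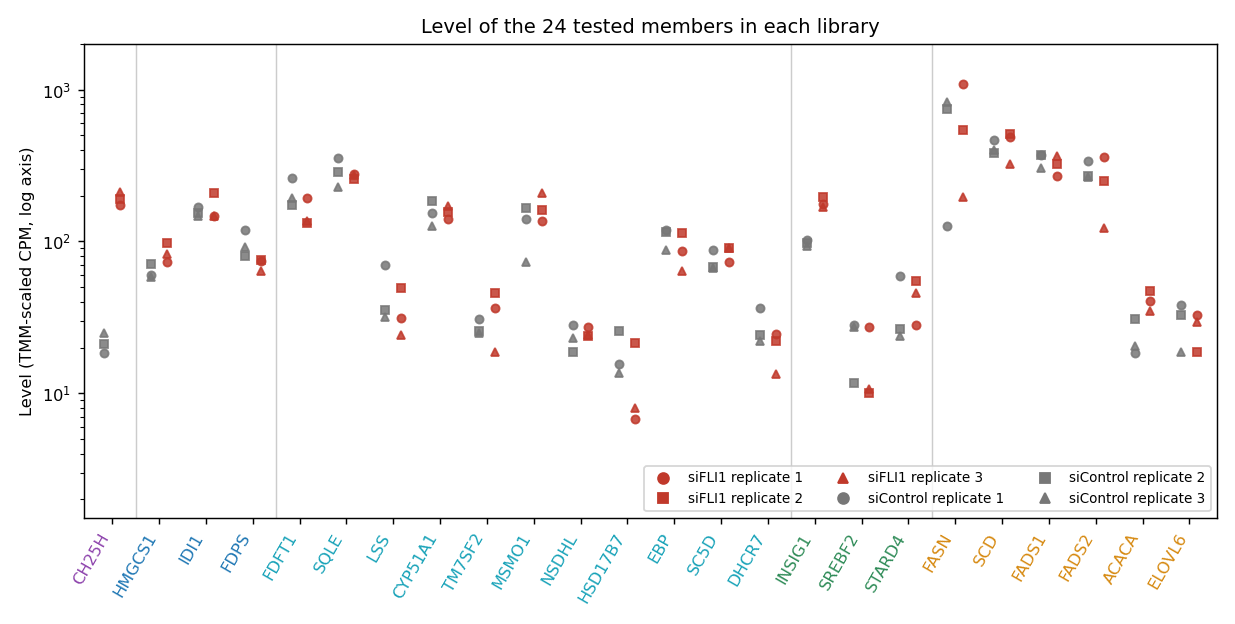
TMM-scaled CPM per library of the 24 tested members, drawn on a log axis, red for siFLI1 and grey for siControl, marker shape for the replicate and label colours for the groups of members. CH25H is the member whose groups stand furthest apart, and FASN spans from 125 to 1091 CPM across the 6 libraries.

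Without CH25H, the 23 tested members had 12 positive and 11 negative log2 fold changes, from −0.55 to 0.89, with a median of 0.00, beside a median of 0.01 over all 9420 tested genes. For 9 of the 23 the 95% interval lay wholly within 2-fold in either direction, and for the other 14 it reached past 2-fold, at most to −1.73 for HSD17B7 on the lower side and 1.61 for ACACA on the upper. IDI1, SQLE, CYP51A1, SCD and FADS1 were among those with an interval inside 2-fold, while those of SREBF2 and FASN reached past it. The intervals are not adjusted for the number of genes. They rest on the spread between libraries, which may be technical. A difference of 2-fold was rarely callable with these libraries. On simulated counts the fit recovered 11.2% of 2-fold and 69.4% of 4-fold differences, set in genes drawn at random rather than in the members.

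The members also varied between libraries of the same group. In siControl, replicate 1 was the highest of the 3 libraries for 10 of the 14 tested enzymes from HMGCS1 to DHCR7, against 38.3% of all tested genes, and replicate 3 for 0 of the 14. The median over these enzymes of the log2 ratio of siControl replicate 1 to the mean of the other siControl libraries was 0.32, against 0.00 over all genes. The summed level of the 11 enzymes from squalene on was 1298, 1127 and 891 CPM in siControl replicates 1, 2 and 3 and 1034, 1079 and 1036 CPM in siFLI1 replicates 1, 2 and 3. The 3 siFLI1 sums thus lay inside the siControl range. The summed level of the fatty acid genes was 2283, 1695 and 1074 CPM with siFLI1 and 1355, 1843 and 1849 CPM with siControl, an order that follows FASN. Summed levels of INSIG1, SREBF2 and STARD4 were 232, 262 and 225 CPM with siFLI1 and 190.1, 136 and 144 CPM with siControl, without overlap, of which INSIG1 was the larger share. Leaving out both siFLI1 replicate 3 and siControl replicate 1, CH25H was at 2.98 and INSIG1 at 0.96 on the log2 scale. The median of the 23 members other than CH25H was then 0.17. Several negative values came nearer to no difference: DHCR7 was at −0.0017, EBP at −0.042, FDFT1 at −0.18, FDPS at −0.21 and SREBF2 at −0.030. HSD17B7 stayed at −0.54, and FADS1 was at −0.20. Whether what sets siControl replicate 1 apart plays a part in the sterol gene levels was not tested.

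**Figure D4:**
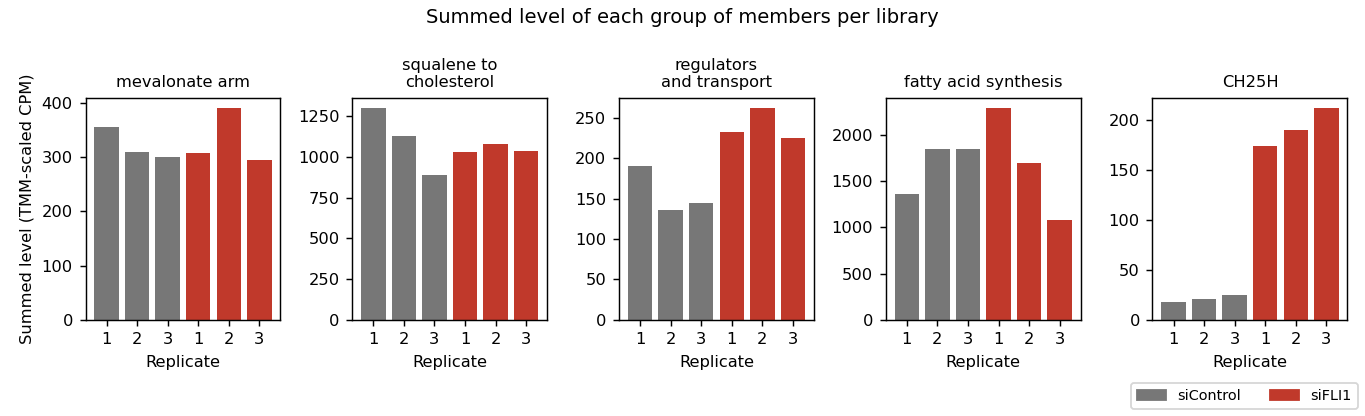
Summed TMM-scaled CPM of each group of members per library, on linear axes from 0, red for siFLI1 and grey for siControl. The squalene to cholesterol sums of siFLI1 (1034 to 1079 CPM) lie inside the siControl range (891 to 1298 CPM), and CH25H alone separates the groups by several fold.

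Genes of the same pathways outside the list were read from lists of general knowledge. Of all 9420 tested genes, 1.34% were called higher and 0.117% lower, and 4752 log2 fold changes were positive and 4668 negative. With these shares, 0 calls in lists of this size say little. Of 14 tested genes of other sterol synthesis, uptake and storage steps, 0 were called in either direction, and 5 log2 fold changes were positive and 9 negative, with a median of −0.17. Among them the thiolase ACAT2 was at 241 ± 16.5 CPM with siFLI1 and 333 ± 94.8 CPM with siControl (SD, n = 3), with −0.46 ± 0.26 (SE). Of 13 tested genes of SREBP processing 0 were called, and 10 were positive, with a median of 0.13. The Golgi protease MBTPS1, which makes the first cut in SREBPs, had the smallest p of them, at 92.3, 82.4 and 56.2 CPM with siFLI1 and 42.5, 31.0 and 39.3 CPM with siControl, with 1.06 ± 0.31 (edgeR adjusted p = 0.135). SEC23A, a coat protein of the vesicles that carry SCAP, was at 0.61 ± 0.28, and SCAP itself, at 6.73 ± 3.60 and 12.4 ± 5.15 CPM, at −0.92 ± 0.63. Of 13 tested genes of the isoprenoid branches that do not lead to sterols, 0 were called, and 12 were negative and 1 positive, with a median of −0.33. NUS1, a subunit of the dolichol-making transferase, was at 22.7 ± 4.93 and 44.9 ± 15.0 CPM, with −0.99 ± 0.39 (edgeR adjusted p = 0.356), PGGT1B, a prenyltransferase subunit, at −1.13 ± 0.58 and PDSS1, of coenzyme Q synthesis, at −0.43 ± 0.33.

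Of 19 other tested genes of fatty acid synthesis, elongation and activation, 0 were called, with 12 positive and 7 negative and a median of 0.05. Before adjustment, 5 had p under 0.05 in the higher direction and 0 in the lower, beside 6.62% and 4.13% of all tested genes. ACSL5, which activates fatty acids, was at 33.0, 20.6 and 37.5 CPM with siFLI1 and 9.15, 6.44 and 5.98 CPM with siControl, with 2.02 ± 0.48 (SE; edgeR adjusted p = 0.0589). AACS, which activates acetoacetate for lipid synthesis, was at 32.4, 29.9 and 75.0 CPM with siFLI1 and 6.46, 19.3 and 11.97 CPM with siControl, with 1.77 ± 0.51 (adjusted p = 0.131, same edgeR fit). ACLY, which makes cytosolic acetyl-CoA, was at 56.6 ± 3.12 and 31.0 ± 4.09 CPM (SD, n = 3), with 0.88 ± 0.31 (adjusted p = 0.274, same edgeR fit). For each of these genes the siFLI1 libraries lay above the siControl libraries, which held for 8.93% of all tested genes, as for ACACA, the carboxylase that uses the acetyl-CoA made by ACLY.

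Among other genes that act on or respond to oxysterols, none of those that could be tested passed the threshold. Of 29 such genes listed, 14 were tested and 0 called, with 8 positive and 6 negative log2 fold changes, from −0.63 to 0.68, and a median of 0.04. The oxysterol-binding protein gene OSBPL9 was at 62.0 ± 5.25 and 43.8 ± 16.9 CPM (SD, n = 3), the receptor partner RXRA at 19.8 ± 10.6 and 33.3 ± 9.89 CPM, and CYP7B1, the hydroxylase that acts further on the product of CH25H, at 12.4 ± 2.51 and 19.3 ± 5.31 CPM. The liver X receptor targets ABCA1 and ABCG1, both cholesterol exporters, were too low to test: ABCA1 had 10, 3 and 7 counts with siFLI1 and 1, 25 and 0 with siControl, and ABCG1 had at most 3 in any library. GPR183, the receptor for an oxysterol made from the product of CH25H, had 2 counts in all 6 libraries together. ABCA1, ABCG1 and GPR183 are named here after their values were seen.

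CH25H is counted among the interferon-stimulated genes in other cells. Of 30 further such genes, all tested, CXCL10 was called lower and 0 were called higher, beside 0.117% and 1.34% of all tested genes. Of their log2 fold changes 23 were negative and 7 positive, with a median of −0.26, beside 4668 negative and 4752 positive over all tested genes. CXCL10, a chemokine, was at 328, 314 and 209 CPM with siFLI1 and 1288, 983 and 857 CPM with siControl, with −1.87 ± 0.30 (SE; edgeR adjusted p = 0.00316). The antiviral synthetase OAS1 was at 76.7 ± 7.62 and 153 ± 43.3 CPM (SD, n = 3), with −0.99 ± 0.28 (adjusted p = 0.131, same edgeR fit), and IFITM2, an antiviral membrane protein, at 747 ± 76.7 and 324 ± 119 CPM, with 1.21 ± 0.30 (adjusted p = 0.0654, same edgeR fit). CH25H and CXCL10, both called and both without overlap, thus differed in opposite directions. Among 3 tested fibroblast markers, COL1A2 and COL1A1 were called higher, with 1.93 ± 0.27 and 1.34 ± 0.25, and PDGFRB was at 1.68 ± 0.47. Of all tested genes, 1.34% were called higher. The summed level of the 5 fibroblast markers listed ran from 1673 to 1853 CPM with siFLI1 and from 487 to 556 CPM with siControl. DCN and LUM had at most 7 counts in any library. Whether this difference has a part in the level of CH25H was not tested.

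**Figure D5:**
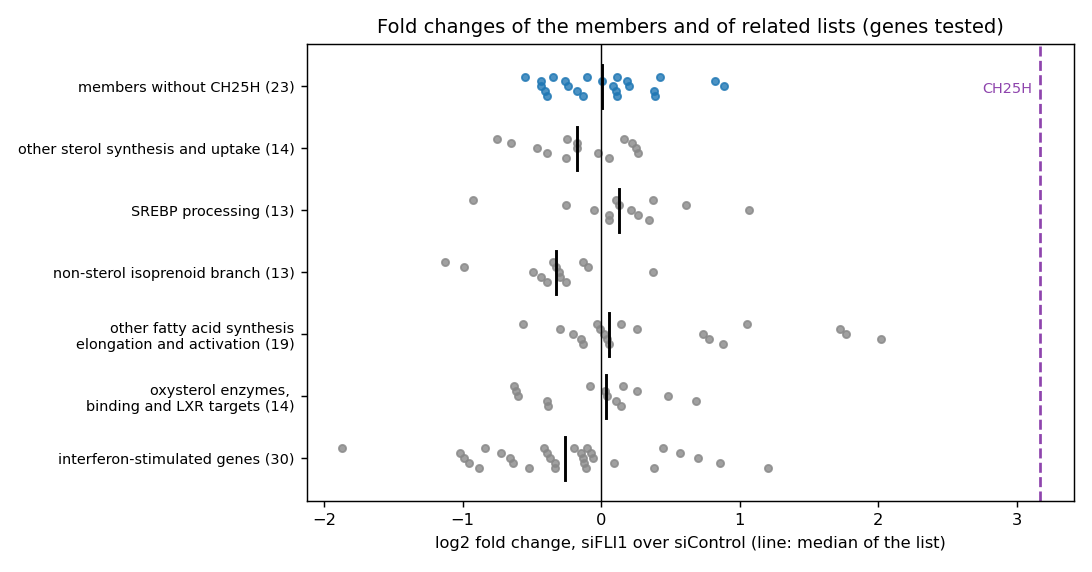
Log2 fold change of siFLI1 over siControl for the 23 tested members other than CH25H (blue) and for tested genes of 6 related lists (grey), with the number tested in brackets, black lines for medians and a dashed line for CH25H at 3.16. Medians lie between −0.33 and 0.13, and no gene of these lists reaches the value of CH25H.

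Some rows can hold reads of more than 1 gene, since it is not stated whether reads were assigned by strand. The rows of FADS1 and FADS2 each overlap the annotated gene of the other on the opposite strand, though the rows themselves do not overlap. MVK overlaps MMAB, IDI1 overlaps WDR37, and TM7SF2 overlaps VPS51 on the same strand. FDPS has 8 annotated pseudogene copies, CYP51A1 has 3, HSD17B7 has 2, and SCD and FADS2 have 1 each, so their reads could be split. The rows of SREBF2 and TM7SF2 are named for non-coding transcripts of these genes (NR_103834 and NR_102367).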

How the data were processed

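RNA was measured in 6 libraries of A673 cells, 3 per group. Per the labels' protocols, the bulk MARS-seq protocol was used, with 3′ reads and molecular barcodes. The authors deposited raw counts per gene over exons. Per the submitters' processing notes, the tools were bcl2fastq, HISAT 0.1.5 and HOMER and the build hg38, in no stated role. Use of barcodes and strand: not given in the sources used here. PCR copies may be among the counts. Groups and replicate numbers came from the titles.

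Members and lists were chosen with earlier results of these data known, and the named genes were all members, FLI1 and, of each other list, the called genes and those with the smallest p up to 3. Some genes within these lists are not reported here. A planned comparison of member proteins was not made, since no protein sequences were used here.

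Of 27234 rows, filterByExpr (minimum count 10, minimum total 15) kept 9420. Tests used R 4.3.3 and edgeR 4.0.16 (TMM, glmQLFit robust, glmQLFTest, two-sided, group only, Benjamini-Hochberg over all tested genes, threshold 0.05). SE and 95% intervals came from the quasi-likelihood F statistic. No library was a repeat of another (smallest chi-square within a group 7.48 per degree of freedom). Alternatives were other scalings and filters, DESeq2 1.42.0, limma-voom (limma 3.58.1), a replicate block, and leaving out libraries. The fit was tested on simulated counts (9090 genes tested, 5.95% of 84 calls false). Overlapping genes and pseudogenes are from GENCODE on GRCh38.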

Additional observations from a re-analysis of the deposited data

How the results depend on the processing

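CH25H was the only member called, and was called higher, under each of 15 alternatives. Over all genes, the 126 higher and 11 lower calls became 98 and 17 under total counts, 306 and 62 with no low-count filter, 183 and 34 in DESeq2, and 161 and 32 without siFLI1 replicate 3 and siControl replicate 1. Leaving out 1 library gave 64 (without siControl replicate 2) to 121 higher and 1 to 7 lower; the higher calls were 71 without siControl replicate 3, 73 without siFLI1 replicate 2 and 82 without siFLI1 replicate 1. With the replicate number as a block, 99 genes were higher and 2 lower, and no member's call changed; same-numbered libraries did not deviate together (correlations −0.03, −0.01 and −0.05), so the numbers were not taken as pairs. Total counts moved the median of all genes to −0.12 and that of the 23 members other than CH25H to −0.12. With no filter the median of all genes was 0.12.

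Medians near 0 changed sign easily. Without siFLI1 replicate 3 and siControl replicate 1, the median of the 23 members was 0.17 and that of the 14 sterol enzymes 0.13, from −0.05, against −0.19 without siControl replicate 3. The fatty acid median of −0.02 ran from −0.21 (without siFLI1 replicate 1) to 0.16 (without siFLI1 replicate 3). Of 345 values for single members, 28 turned sign, in 10 genes that were not called in any fit. CYP51A1 was at −0.0052 under DESeq2 size factors, −0.0066 in DESeq2, −0.12 under total counts, −0.032 under upper quartile scaling, −0.051 with no filter and −0.08 without both libraries, with −0.13 to 0.15 leaving out 1. Under total counts IDI1 was at −0.027, NSDHL at −0.029 and SCD at −0.050. Leaving out both libraries, SQLE was at 0.048, LSS at 0.25 and FADS2 at 0.17. Leaving out 1 library or these 2, ranges were −0.093 to 0.22 for IDI1, −0.065 to 0.72 for STARD4, −0.027 to 0.34 for SCD, −0.41 to 0.066 for ELOVL6, −0.62 to 0.17 for FADS2, −0.25 to 0.048 for SQLE, −0.68 to 0.25 for LSS, −0.60 to 0.52 for FASN and −0.019 to 0.29 for NSDHL. The cause was not tested. In siFLI1 replicate 3, which had the fewest counts in genes, 1 count is 2.68 CPM.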
